A study of Mus musculus with 10 samples.

Results

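Gene expression was compared between mouse embryonic stem cells labelled L3mbtl2 knockout and wild type cells. Embryonic stem cells are cultured cells that can form every tissue of the embryo. The comparison was chosen by the library labels and holds 5 of the 10 RNA sequencing libraries of the study, namely 2 of genotype L3mbtl2-/- and 3 of wild type genotype. All 10 libraries came from cells of the C57BL/6 strain. The other libraries were 2 of genotype Pcgf6-/- and 3 of genotype Mga-/-, and they serve below only to show where the L3mbtl2 knockout differed from them. How each knockout was made, how many clones it covers and whether replicates were separate cultures are not given in the sources used here. The p-values below thus rest on the scatter between these libraries alone, and that scatter may be technical.

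L3MBTL2 is a chromatin protein with MBT domains, folds that can bind methylated histone tails. It belongs to the noncanonical Polycomb complex PRC1.6, in which MGA with MAX and E2F6 with DP1 contact DNA, PCGF6 pairs with the RING1 or RNF2 ubiquitin ligase, and HDAC1 or HDAC2, WDR5 and CBX3 are further partners. In embryonic stem cells the complex is best known for keeping genes of germ cells and meiosis silent outside the germline. MGA-MAX recognises the E-box CACGTG, and E2F6 recognises the E2F motif.

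The deposited values are FPKM, fragment counts scaled by transcript length and by library size. Depth, in M reads assigned to genes (M for 10 to the power of 6), was 23.7 and 23 in the L3mbtl2 knockout libraries, against 23.9, 26.7 and 26.6 in the wild type libraries. The median gene had a standard deviation between libraries, on the log2 scale, of 0.059 in L3mbtl2 knockout and 0.081 in wild type, so small shifts passed the test. Genes were tested with limma on log2(FPKM + 0.1), and a gene was called at a Benjamini-Hochberg adjusted p under 0.05. The filter asked for 0.5 FPKM or more in 2 or more of the 5 libraries and left 14505 genes, of which 72.6% were called. In L3mbtl2 knockout 6072 were higher (41.9%) and 4453 were lower (30.7%). By at least 2-fold, 1875 were higher (12.9%) and 1342 were lower (9.25%). Every count of a gene group below is to be read against these shares. Of the genes tested, 807 were under 0.5 FPKM in every wild type library and passed through the L3mbtl2 knockout alone. They had to be higher there, so for them the test does not bear on direction. Higher list members that no longer pass the filter with either L3mbtl2 knockout library left out are of this kind. The median log2 fold change of all genes was 0.12. With libraries scaled by the median of ratios instead, the median moved to -0.01, and 47.1% of called genes were higher in place of 57.7%, so calls of small rises depend on the scaling.

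Library identity was checked first on the targeted gene. L3mbtl2 (ENSMUSG00000022394, chr15:81663889-81688315, GRCm38) had 3.72 and 3.49 FPKM in L3mbtl2 knockout, against 19.8, 20.5 and 20.3 FPKM in wild type. The groups did not overlap, with means of 3.6 ± 0.162 FPKM in L3mbtl2 knockout (SD, n = 2) and 20.2 ± 0.382 FPKM in wild type (SD, n = 3). On the log2 scale the knockout was at -2.45 ± 0.05 relative to wild type (SE, limma adjusted p = 6.8e-07). Values per gene sum all exons and cannot show which exon was affected. The embryonic stem cell marker Pou5f1, the core pluripotency factor also called Oct4, was high in both groups. It had 131 and 135 FPKM in L3mbtl2 knockout and 110, 122 and 133 FPKM in wild type, with overlapping ranges (0.14 ± 0.08, adjusted p = 0.156). Nanog, another such marker, was also high in both groups but differed between them, as given below. Of 20 core pluripotency and Dppa genes, all tested, 12 were higher and 6 lower (median 0.23). By at least 2-fold, 3 of them were higher and 2 lower.

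The partners of L3MBTL2 changed in both directions. Of the 14 PRC1.6 subunits, all of them tested, 10 were higher and 3 were lower, L3mbtl2 among these 3, with a median log2 fold change of 0.22. E2f6, the repressive E2F of the complex, had 27.8 and 28.7 FPKM in L3mbtl2 knockout, against 11.1, 11.3 and 11 FPKM in wild type (1.33 ± 0.04, adjusted p = 2.05e-06). Tfdp1, which encodes the DP1 partner of E2F proteins, moved the other way, with 71.5 and 70 FPKM in L3mbtl2 knockout and 138, 135 and 137 FPKM in wild type (-0.95 ± 0.03, adjusted p = 2.25e-06). Hdac2, a histone deacetylase, rose by 0.99 ± 0.03, while its relative Hdac1 had a log2 fold change of 0.08 (adjusted p = 0.0722). Rnf2, the main RING ubiquitin ligase of embryonic stem cells, rose by 0.93 on the log2 scale. It lies on chromosome 1, where the median gene was 0.76 higher. Ring1, its relative, had 1.92 and 2.37 FPKM in L3mbtl2 knockout and 3.13, 2.93 and 3.26 FPKM in wild type (-0.52 ± 0.11, adjusted p = 0.00613). Yaf2 rose by 0.72 and Wdr5 by 0.46. The rises of Mga and Pcgf6 (0.22 each) and of Max (0.18) were not called with median-of-ratios scaling, where 6 subunits were higher.

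Germ cell and meiosis genes were among the most strongly raised. Their promoters bear on the DNA motifs of the complex, so 5 are shown here, as the 250 bases before the RefSeq transcription start (GRCm38.p6, read 5′ to 3′ on the gene's strand), with CACGTG and the E2F motif, GCGGGAA or its reverse complement TTCCCGC, in capitals. Ddx4 (chr13:112652311-112652560, minus strand) and Sycp3 (chr10:88459337-88459586, plus strand) hold both motifs, and Taf7l (chrX:134476491-134476740, minus strand), Mael (chr1:166238745-166238994, minus strand) and Sycp1 (chr3:102936101-102936350, minus strand) hold the E-box alone. The genes other than Sycp3 were higher in L3mbtl2 knockout, and Sycp3 was lower. All 5 hold the E-box, which most promoters of raised germ cell genes lacked, as counted below. Of the 15 largest rises among protein-coding genes, 13 had a promoter counted, and 3 of these held the E-box.
Ddx4: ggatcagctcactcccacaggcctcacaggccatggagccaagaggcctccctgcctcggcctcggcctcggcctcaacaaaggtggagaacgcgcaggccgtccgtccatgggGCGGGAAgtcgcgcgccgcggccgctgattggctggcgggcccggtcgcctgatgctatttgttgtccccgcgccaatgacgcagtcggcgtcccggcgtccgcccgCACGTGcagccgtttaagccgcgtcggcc
Taf7l: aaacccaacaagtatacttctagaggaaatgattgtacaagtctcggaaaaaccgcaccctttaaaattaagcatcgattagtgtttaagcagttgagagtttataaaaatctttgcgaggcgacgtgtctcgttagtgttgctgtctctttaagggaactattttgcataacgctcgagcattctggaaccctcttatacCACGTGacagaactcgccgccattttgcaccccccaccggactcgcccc
Mael: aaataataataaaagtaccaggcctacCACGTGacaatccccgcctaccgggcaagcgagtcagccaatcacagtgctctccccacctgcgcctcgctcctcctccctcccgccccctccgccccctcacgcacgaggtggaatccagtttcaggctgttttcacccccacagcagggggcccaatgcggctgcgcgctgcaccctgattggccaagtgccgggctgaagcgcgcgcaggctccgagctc
Sycp1: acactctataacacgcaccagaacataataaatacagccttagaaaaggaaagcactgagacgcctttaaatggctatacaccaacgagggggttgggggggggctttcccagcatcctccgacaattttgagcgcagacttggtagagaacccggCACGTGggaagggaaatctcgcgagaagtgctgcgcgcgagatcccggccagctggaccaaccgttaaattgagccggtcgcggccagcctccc
Sycp3: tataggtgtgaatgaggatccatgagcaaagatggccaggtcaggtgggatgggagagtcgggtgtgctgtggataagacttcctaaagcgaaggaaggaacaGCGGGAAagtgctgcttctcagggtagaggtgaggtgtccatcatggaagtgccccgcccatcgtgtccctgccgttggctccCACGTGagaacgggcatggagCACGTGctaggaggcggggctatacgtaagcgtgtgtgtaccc

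Over windows from 250 bases before to 50 bases after the start, searched on both strands, the E-box was present in 7.24% of the 27025 promoters of the table and the E2F motif in 4.66%. Of the 10054 protein-coding genes tested that had a promoter in the table, 10.4% held the E-box and 8.77% the E2F motif. Among protein-coding genes called at least 2-fold higher, 9.01% of 955 held the E-box and 8.69% the E2F motif, and among those called at least 2-fold lower the shares were 8.32% and 6.78% of 914. Of the 44 promoters of genes called at least 16-fold higher, 8 held the E-box (18.2%) and 3 the E2F motif (6.82%). In the germ cell and meiosis lists described next, 14 of 41 promoters of members called at least 2-fold higher held the E-box (34.1%) and 9 the E2F motif (22%). The other tested members of these lists held the E-box in 6 of 27 promoters (22.2%) and the E2F motif in 5 (18.5%). The shares are descriptions of these windows, and a match is not a bound site.

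Among tested genes of the piRNA pathway, which makes small RNAs that silence transposons in germ cells, none was called lower. Of 20 listed genes 19 passed the filter, 15 were higher and 0 lower, with a median log2 fold change of 1.81. Ddx4, a germ cell RNA helicase, had 158 and 153 FPKM in L3mbtl2 knockout, against 10.2, 9.76 and 9.21 FPKM in wild type (3.99 ± 0.05, adjusted p = 2.45e-07). Piwil2, an Argonaute protein that carries piRNAs, had 40.4 and 40.3 FPKM in L3mbtl2 knockout and 7.64, 8.24 and 8.04 FPKM in wild type (2.33 ± 0.05, adjusted p = 6.74e-07). Both genes were already well above 0 in wild type cells. Asz1, a mitochondrial membrane protein of the pathway, started from near 0, with 3.97 and 3.93 FPKM in L3mbtl2 knockout and 0.0591, 0.0794 and 0.0531 FPKM in wild type (4.63 ± 0.20, adjusted p = 7.38e-06). Asz1 passed the filter through the L3mbtl2 knockout libraries alone and therefore had to be higher there. Gtsf1, a partner of PIWI proteins, rose by 3.83 and Tdrkh, a Tudor protein that helps trim piRNAs, by 3.39. The other PIWI genes stayed low even after their rises, with 1.4 and 1.22 FPKM for Piwil1 and 0.61 and 0.854 FPKM for Piwil4 in L3mbtl2 knockout. With 1 L3mbtl2 knockout library left out, whichever it was, 8 of the 15 higher members no longer passed the filter. These 8 passed it through the L3mbtl2 knockout libraries alone and therefore had to be higher there. The median of 1.81 includes them.

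Regulators of meiotic entry rose in 9 of 10 genes that passed the filter, of 15 listed, and 1 was lower (median 1.74). With all 10 libraries in the fit, 5 were higher. Sohlh2, a germ cell transcription factor, had 56.6 and 55.9 FPKM in L3mbtl2 knockout, against 5.87, 6.41 and 5.55 FPKM in wild type (3.22 ± 0.06, adjusted p = 6.93e-07). Meioc, which lets germ cells complete meiotic prophase, had 14.8 FPKM in both L3mbtl2 knockout libraries and 3.55, 3.38 and 3.01 FPKM in wild type (2.13 ± 0.08, adjusted p = 4.65e-06). Dazl, a germ cell RNA-binding protein, was at 70.9 and 73.6 FPKM in L3mbtl2 knockout and at 1.15, 0.776 and 1.37 FPKM in wild type. Rbm46 rose by 2.97 and Tex15 by 1.36 on the log2 scale. Stra8, the retinoic acid target that starts meiosis, changed less, with 17.2 and 17 FPKM in L3mbtl2 knockout and 9.84, 9.48 and 8.05 FPKM in wild type (0.91 ± 0.09, adjusted p = 0.000197). The calls of Stra8 and Tex15 were lost when all 10 libraries of the study entered the fit.

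Structural genes of meiotic chromosomes split. In the synaptonemal complex and chromosome axis list 16 of 20 genes passed the filter, 12 were higher and 3 lower, with a median of 2.19. Of the 12 higher members, 3 no longer passed the filter when 1 L3mbtl2 knockout library was left out, whichever it was. Sycp2, an axis protein, had 3.39 and 3.32 FPKM in L3mbtl2 knockout and 0.112, 0.0251 and 0.0378 FPKM in wild type (4.49 ± 0.29, adjusted p = 3.64e-05). It passed the filter through the L3mbtl2 knockout libraries alone and therefore had to be higher there. Majin, which ties telomeres to the nuclear envelope, rose by 4.89 and Hormad2, an axis protein that monitors pairing, by 3.28. Sycp1, the transverse filament of the complex, had 5.92 and 6.41 FPKM in L3mbtl2 knockout and 1.26, 1.26 and 0.972 FPKM in wild type (2.32 ± 0.13, adjusted p = 2.26e-05). The 3 lower members were structural parts of the same assembly. Sycp3 had 1.13 and 1.24 FPKM in L3mbtl2 knockout and 2.32, 2.46 and 1.75 FPKM in wild type (-0.81 ± 0.16, adjusted p = 0.00443). Syce1 had 3.05 and 2.82 FPKM in L3mbtl2 knockout and 3.78, 3.66 and 3.83 FPKM in wild type (-0.35 ± 0.07, adjusted p = 0.00578), and Hormad1 fell by 0.92 ± 0.18 (adjusted p = 0.00433). In none of these 3 genes did the groups overlap. The call of Sycp3 was lost with all 10 libraries in the fit, and that of Syce1 with limma-voom on recovered reads.

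Meiotic recombination genes responded less, with 7 higher and 2 lower of 12 that passed the filter, of 23 listed (median 0.75). Of the 7 higher members, 2 no longer passed the filter when 1 L3mbtl2 knockout library was left out, whichever it was. Zcwpw1, a histone reader at recombination sites, had 44.4 and 43.5 FPKM in L3mbtl2 knockout, against 2.48, 2.38 and 2.65 FPKM in wild type (4.08 ± 0.06, adjusted p = 3.28e-07). Dmc1, the recombinase of meiosis, had 15.4 and 15.9 FPKM in L3mbtl2 knockout and 8.85, 7.68 and 8.08 FPKM in wild type (0.92 ± 0.07, adjusted p = 6.04e-05). The genes that start recombination stayed near 0. Spo11, which cuts the DNA, had 0.0215 and 0.0332 FPKM in L3mbtl2 knockout and 0, 0 and 0.0575 FPKM in wild type. Prdm9, which marks the sites to be cut, had 0.547 and 0.393 FPKM in L3mbtl2 knockout and 0.243, 0.356 and 0.227 FPKM in wild type, below the filter.

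Several of the largest rises of the whole comparison were testis genes. Of 34 listed germ cell surface and testis-specific genes 25 passed the filter, 19 were higher and 4 lower (median 1.42). Without L3mbtl2 knockout replicate 1 there were 11 higher members and without replicate 2 there were 12, since 7 no longer passed the filter. Tex101, a surface protein of male germ cells, had 319 and 329 FPKM in L3mbtl2 knockout, against 0.505, 0.61 and 0.817 FPKM in wild type (8.79 ± 0.16, adjusted p = 6.33e-07). Taf7l, a germ cell relative of a general transcription factor subunit, was at 126 FPKM in both L3mbtl2 knockout libraries and at 0.745, 0.8 and 1.04 FPKM in wild type. Neighbouring genes also rose together. Lypd4, a sperm surface protein gene, and Dmrtc2, a DM-domain factor of spermatocytes, are transcribed away from each other on chromosome 7. Their gene starts in the GENCODE annotation, which differ from the RefSeq starts used for promoters, lie 116 bases apart. Lypd4 had 36.2 and 37.2 FPKM in L3mbtl2 knockout and 0, 0 and 0.0271 FPKM in wild type, which is 1 read in all wild type libraries. Dmrtc2 had 60 and 55.7 FPKM in L3mbtl2 knockout and 0.723, 0.601 and 0.627 FPKM in wild type (6.27 ± 0.09, adjusted p = 3.28e-07). Btbd18, a BTB-domain protein needed for piRNA production in the testis, had 23.9 and 22.8 FPKM in L3mbtl2 knockout and 0.44, 0.478 and 0.502 FPKM in wild type (5.36 ± 0.09, adjusted p = 4.76e-07).

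**Figure D1:**
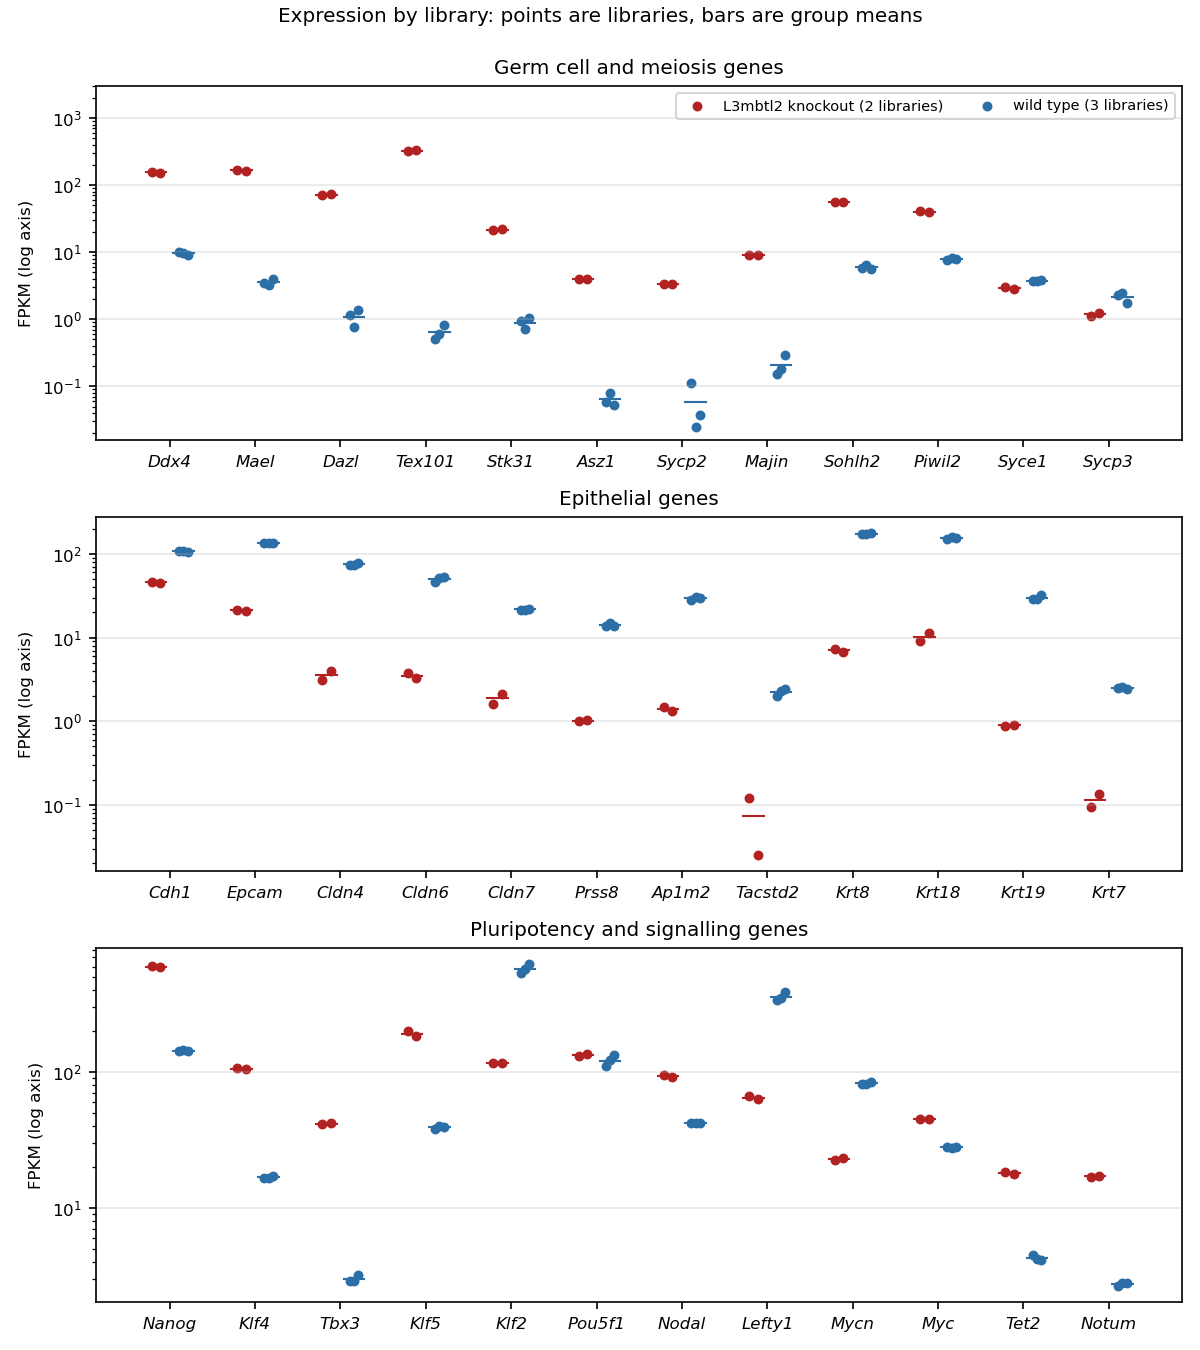
FPKM on a log axis for 36 genes, with the L3mbtl2 knockout libraries on the left of each pair and the wild type libraries on the right, bars marking group means. Tex101 stands at 319 and 329 FPKM in L3mbtl2 knockout, Syce1 and Sycp3 lie slightly lower in L3mbtl2 knockout, and Pou5f1 is the gene shown whose groups overlap.

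Clustered germline families on chromosome X gave mixed results, and because their copies are alike, the split of reads between members is uncertain. All 7 Xlr family members that passed the filter, of 9 listed, were higher (median 4.25). Of these, 5 no longer passed the filter with 1 L3mbtl2 knockout library left out, whichever it was, and therefore had to be higher. Xlr3c had 9.49 and 8.17 FPKM in L3mbtl2 knockout and 0.0528, 0.307 and 0.261 FPKM in wild type (4.98 ± 0.42, adjusted p = 0.000109). In contrast, 7 of the 12 Rhox homeobox genes passed, with 4 higher and 3 lower. With 1 L3mbtl2 knockout library left out, whichever it was, 1 was higher, since 3 of the 4 no longer passed the filter. Rhox13 had 111 and 110 FPKM in L3mbtl2 knockout and 0.239, 0.299 and 0.386 FPKM in wild type (8.10 ± 0.15, adjusted p = 6.33e-07). Rhox9 had 0.406 and 0.349 FPKM in L3mbtl2 knockout and 1.55, 1.99 and 1.96 FPKM in wild type (-2.01 ± 0.17, adjusted p = 9.88e-05), and Rhox6 fell by 1.08. Rhox5 had 22.9 and 23.1 FPKM in L3mbtl2 knockout and 27.2, 29.5 and 31.3 FPKM in wild type (-0.35 ± 0.06, adjusted p = 0.00259). Thus members of 1 cluster went opposite ways. Rhox13, like Xlr3c, passed the filter through the L3mbtl2 knockout libraries alone and therefore had to be higher there. Of the MAGE and cancer-testis genes 14 of 22 passed, with 9 higher and 3 lower. With 1 L3mbtl2 knockout library left out, whichever it was, 0 were called higher by limma, since 8 of the 9 no longer passed the filter and 1 missed the threshold. Magea5 and Magea8 had 0 FPKM in every wild type library. Against a floor of 3 reads over the wild type group, Magea5 was at least 43.5-fold higher in L3mbtl2 knockout, with 0.948 and 1.11 FPKM, and Magea8 at least 49.5-fold higher, with 0.793 and 1.56 FPKM.

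The 2-cell-like programme, which a few embryonic stem cells enter at a time, was mostly below the filter, which 1 of 17 listed genes passed. That gene, Eif1a, had 70.4 and 67 FPKM in L3mbtl2 knockout and 58.9, 57.1 and 56.2 FPKM in wild type (0.26 ± 0.04, adjusted p = 0.00106). It encodes a translation initiation factor and made up nearly all of the summed FPKM of the list. Zscan4c had 0.0916 and 0.0378 FPKM in L3mbtl2 knockout and 0.0364, 0 and 0 FPKM in wild type. Obox6, an oocyte homeobox gene outside that list, had 15.9 and 15.8 FPKM in L3mbtl2 knockout, against 0.405, 0.39 and 0.364 FPKM in wild type. It passed the filter through the L3mbtl2 knockout libraries alone and therefore had to be higher there (5.04 ± 0.09, adjusted p = 6.33e-07).

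Epithelial keratins and epithelial junction genes had the lowest medians of the 52 gene lists examined. Of 48 epithelial junction and sorting genes 47 passed the filter, 44 were lower and 2 higher, with a median of -1.48, and 29 were at least 2-fold lower. Embryonic stem cell colonies have an epithelial character, with E-cadherin junctions between cells. Cdh1, which encodes E-cadherin, had 46.6 and 45.4 FPKM in L3mbtl2 knockout, against 109, 108 and 106 FPKM in wild type (-1.22 ± 0.03, adjusted p = 1.24e-06). Epcam, an adhesion molecule of epithelia, had 21.3 and 21 FPKM in L3mbtl2 knockout and 135, 133 and 135 FPKM in wild type (-2.66 ± 0.03, adjusted p = 2.45e-07). The claudins, which seal tight junctions, fell further. Cldn6 had 3.72 and 3.26 FPKM in L3mbtl2 knockout and 46.1, 51.4 and 52.7 FPKM in wild type (-3.81 ± 0.08, adjusted p = 7.16e-07). Cldn7 had 1.62 and 2.14 FPKM in L3mbtl2 knockout and 21.6, 21.6 and 21.9 FPKM in wild type (-3.47 ± 0.11, adjusted p = 2.51e-06). Prss8, a membrane-bound protease of epithelia, fell to 1 and 1.03 FPKM in L3mbtl2 knockout, against 13.7, 15.1 and 13.9 FPKM in wild type (-3.68 ± 0.07, adjusted p = 6.33e-07). Tjp1, a scaffold protein of the junction named after its values were seen, moved little, with a log2 fold change of -0.27.

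Keratins, the intermediate filaments of epithelia, fell with the junction genes: 8 of 9 that passed the filter, of 12 listed, were lower and 1 was higher (median -3.02). The list summed to 71.3 and 73.5 FPKM in L3mbtl2 knockout, against 498, 509 and 522 FPKM in wild type. Krt7 had 0.0955 and 0.135 FPKM in L3mbtl2 knockout and 2.52, 2.55 and 2.42 FPKM in wild type (-3.60 ± 0.16, adjusted p = 7.69e-06). Krt17 had 13.4 and 13.3 FPKM in L3mbtl2 knockout and 78.4, 78.3 and 86 FPKM in wild type (-2.59 ± 0.05, adjusted p = 6.33e-07). Genes of the opposite, mesenchymal character rose modestly, with 9 higher and 2 lower of 13 that passed and a median of 0.44, against 2 higher with all 10 libraries in the fit. Vim, which encodes the mesenchymal filament vimentin, had 115 and 112 FPKM in L3mbtl2 knockout and 85.9, 84.2 and 84.8 FPKM in wild type (0.42 ± 0.03, adjusted p = 4.28e-05), a call that was lost with all 10 libraries in the fit. Zeb1, a repressor of E-cadherin, had 5.14 and 4.72 FPKM in L3mbtl2 knockout and 1.87, 1.89 and 1.66 FPKM in wild type (1.40 ± 0.10, adjusted p = 4.33e-05). N-cadherin, encoded by Cdh2, had a log2 fold change of 0.11 (adjusted p = 0.22). In bulk samples, fewer cells of a type and less RNA per cell cannot be told apart.

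Klhl13 and Nccrp1 fell furthest of the named genes on the log2(FPKM + 0.1) scale. Klhl13 encodes an adaptor of the CUL3 ubiquitin ligase and lies on chromosome X. It had 4.02 and 3.77 FPKM in L3mbtl2 knockout, against 317, 305 and 296 FPKM in wild type (-6.26 ± 0.04, adjusted p = 7.78e-08). Its partners did not follow, since of 13 genes of that ligase group, Klhl13 included, 3 were higher and 5 lower (median -0.01). Klhl9, the closest partner of KLHL13 in cell division, had 8.07 and 8.22 FPKM in L3mbtl2 knockout and 8.54, 7.85 and 8.27 FPKM in wild type (adjusted p = 0.849). Nccrp1, a sugar-binding F-box protein, fell to 0.193 and 0.227 FPKM in L3mbtl2 knockout, against 21.4, 21.6 and 22.1 FPKM in wild type (-6.14 ± 0.07, adjusted p = 2.45e-07). Hpn, a membrane serine protease, fell by 4.46 and Gstm3, a glutathione transferase, by 4.37.

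Mid1 was far lower in L3mbtl2 knockout than in any other group. Mid1, a ubiquitin ligase on microtubules, had 0.733 and 0.73 FPKM in L3mbtl2 knockout, 18.1 and 16.6 FPKM in Pcgf6 knockout, 43.1, 37.7 and 15.9 FPKM in Mga knockout and 14.5, 13.9 and 13.7 FPKM in wild type. Against wild type its log2 fold change was -4.09 ± 0.06 (adjusted p = 3.28e-07), and the difference between L3mbtl2 knockout and Pcgf6 knockout was -4.39 ± 0.06 (adjusted p = 6.7e-08). The difference from Mga knockout was -5.16 ± 0.35 (adjusted p = 5.14e-05). Mid1 lies on chromosome X at 169685199 to 170005736. The noncoding genes Gm15726 and Gm15247 lie within it on the other strand and fell by 3.61 and 4.39. The library kit does not mark strand, so reads of Mid1 and of these genes cannot be told apart. Hccs, a neighbouring protein-coding gene, had a log2 fold change of 0.88 and was named after its values were seen.

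Cholesterol synthesis genes fell together. All 24 listed genes passed the filter, 21 were lower and 2 higher, and the median was -0.99, with 12 at least 2-fold lower. Hmgcs1, an early enzyme of the pathway, had 54.2 and 52.4 FPKM in L3mbtl2 knockout, against 104, 99.9 and 94 FPKM in wild type (-0.89 ± 0.05, adjusted p = 1.66e-05). Mvd, which completes the making of the isoprenoid unit, had 15.4 and 17.9 FPKM in L3mbtl2 knockout and 38.8, 44 and 47 FPKM in wild type (-1.37 ± 0.10, adjusted p = 4.97e-05). Dhcr7, which catalyses the last step, had 9.78 and 9.66 FPKM in L3mbtl2 knockout and 33.4, 34.2 and 35.2 FPKM in wild type (-1.81 ± 0.04, adjusted p = 7.71e-07). Early and late steps thus moved the same way. With all 10 libraries in the fit, 17 members were still lower.

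Glycolysis and hypoxia genes were lower in 26 of 39 members, all of which passed the filter, and higher in 7 (median -0.68). Ldha, lactate dehydrogenase, had 187 and 191 FPKM in L3mbtl2 knockout, against 417, 426 and 435 FPKM in wild type (-1.17 ± 0.03, adjusted p = 1.58e-06). Pgk1 had 136 and 144 FPKM in L3mbtl2 knockout and 274, 283 and 289 FPKM in wild type (-1.01 ± 0.04, adjusted p = 5.02e-06). Pfkl, a subunit of phosphofructokinase, fell by 1.17, and Slc16a3, the lactate exporter, had 14.2 and 14.8 FPKM in L3mbtl2 knockout and 56.3, 60.7 and 62.2 FPKM in wild type (-2.04 ± 0.05, adjusted p = 1.28e-06). Hk2, which commits glucose to the pathway, was an exception, with 53.5 and 55.9 FPKM in L3mbtl2 knockout and 42, 42.1 and 42.2 FPKM in wild type (0.38 ± 0.03, adjusted p = 0.000111).

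Amino acid and stress-response genes controlled by ATF4 were lower in 21 of 34 members and higher in 5 (median -0.44). Phgdh, the entry enzyme of serine synthesis, had 28.4 and 30.1 FPKM in L3mbtl2 knockout, against 102, 104 and 106 FPKM in wild type (-1.83 ± 0.04, adjusted p = 7.14e-07). Pck2, the mitochondrial form of a gluconeogenic enzyme, had 3.02 and 2.91 FPKM in L3mbtl2 knockout and 18.4, 18.2 and 19.4 FPKM in wild type (-2.61 ± 0.05, adjusted p = 6.74e-07). Atf4 itself fell by 0.47 ± 0.03 (adjusted p = 2.23e-05), while Ddit3, the stress factor CHOP, had a log2 fold change of 0.01 (adjusted p = 0.916). The number of higher members moved with the scaling, with 10 under upper-quartile scaling and 3 under median-of-ratios scaling.

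Cytosolic ribosomal protein genes were lower in 32 of 35 members and higher in 3, by small amounts (median -0.39). Rplp0 had 1615 and 1639 FPKM in L3mbtl2 knockout, against 2415, 2548 and 2664 FPKM in wild type (-0.64 ± 0.05, adjusted p = 6.44e-05). Rpl7, on chromosome 1, was among the 3 higher members (0.36 ± 0.03, adjusted p = 0.000111). With all 10 libraries in the fit, 17 members were lower. Transcripts of the mitochondrial genome rose in 11 of 12 members that passed the filter and fell in 0 (median 0.84). Reads on the mitochondrial genome were 3.68% and 3.5% of the total in L3mbtl2 knockout and 3.09%, 2.91% and 2.84% in wild type. mt-Cytb had 5111 and 4856 FPKM in L3mbtl2 knockout and 2396, 2306 and 2307 FPKM in wild type (1.09 ± 0.04, adjusted p = 4.83e-06), and mt-Co1, the most abundant, had a log2 fold change of -0.14 (adjusted p = 0.074). Nuclear genes of the respiratory chain gave no stable direction, with 21 of 40 higher and 7 lower as deposited and 12 higher and 14 lower with median-of-ratios scaling.

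**Figure D2:**
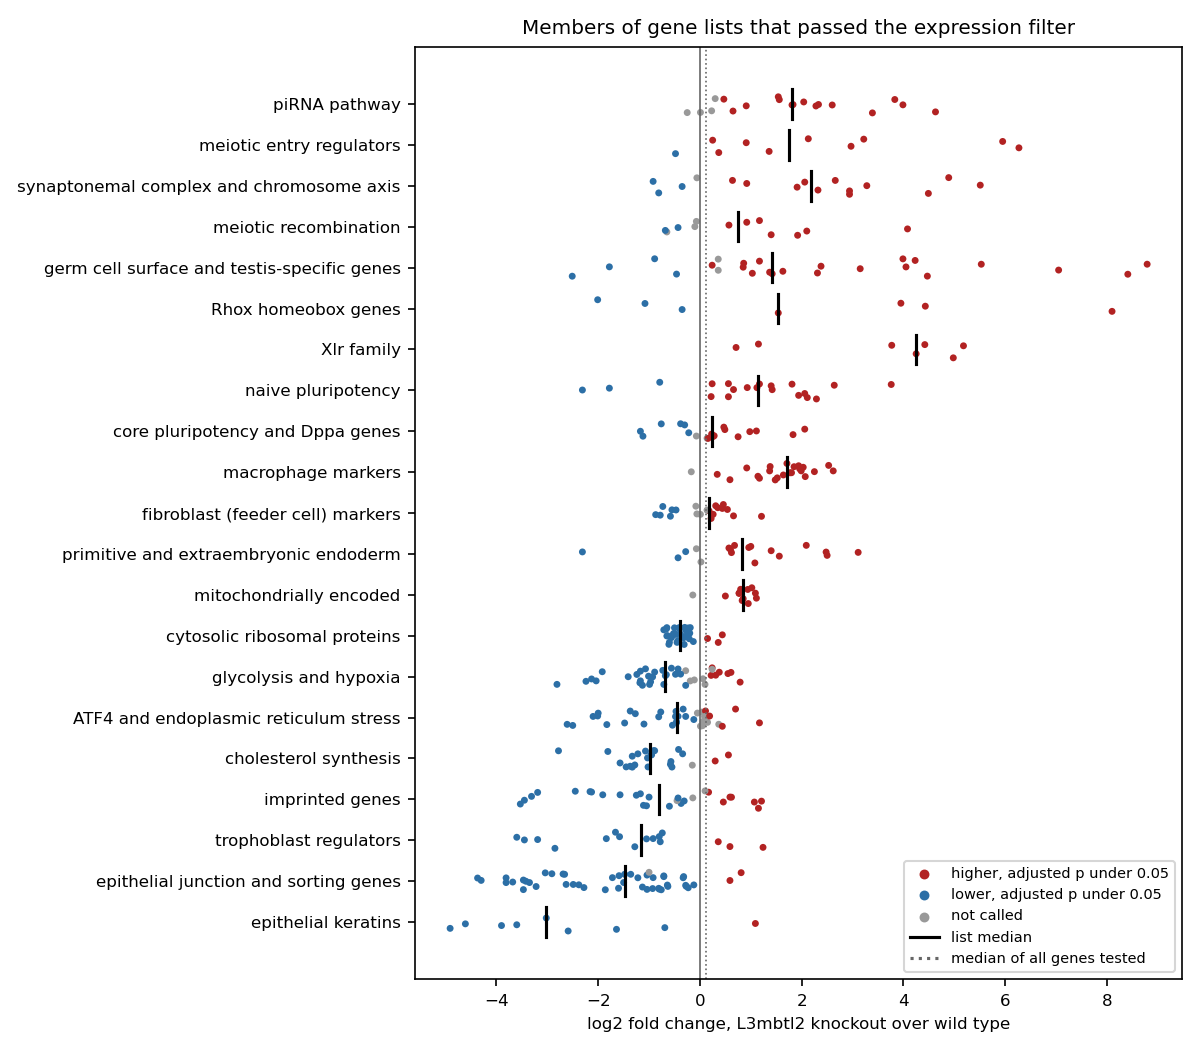
Log2 fold changes of L3mbtl2 knockout over wild type for the members of 21 gene lists that passed the expression filter, each point a gene, with red for called higher, blue for called lower and grey for not called. Medians run from 4.25 in the Xlr family to -3.02 in the epithelial keratins, beside 0.12 for all genes tested. In the Xlr family 5 of the 7 members passed the filter through L3mbtl2 knockout alone and had to be higher.

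Naive pluripotency genes, which mark the ground state of embryonic stem cells, were higher in 17 of 20 members and lower in 3 (median 1.15). Klf4, a factor that supports self-renewal, had 107 and 105 FPKM in L3mbtl2 knockout, against 16.7, 16.7 and 17.2 FPKM in wild type (2.64 ± 0.03, adjusted p = 2.45e-07). Nanog, a core factor of the naive state, had 601 and 599 FPKM in L3mbtl2 knockout and 142, 146 and 142 FPKM in wild type. Tfcp2l1 rose by 2.11 ± 0.03 and lies on chromosome 1, where the median gene was 0.76 higher. Klf2, which overlaps with Klf4 in function, went the other way, with 116 and 117 FPKM in L3mbtl2 knockout and 536, 577 and 625 FPKM in wild type (-2.31 ± 0.06, adjusted p = 1.71e-06). Genes of the primed state, which follows naive pluripotency, gave 6 higher and 9 lower of 16 that passed (median -0.54). Otx2 had 0.397 and 0.409 FPKM in L3mbtl2 knockout and 1.05, 1.17 and 1.05 FPKM in wild type (-1.24 ± 0.16, adjusted p = 0.000569). Dnmt3b, a DNA methyltransferase of the primed state, fell by 0.95 ± 0.03 (adjusted p = 2.49e-06). Lef1 was an exception and rose by 3.33 ± 0.18 (adjusted p = 1.8e-05).

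Signalling genes shifted without a common direction. Nodal, a TGF-beta ligand of the early embryo, had 94.6 and 91.6 FPKM in L3mbtl2 knockout, against 42.4, 42.3 and 42.3 FPKM in wild type (1.13 ± 0.03, adjusted p = 1.45e-06). Its feedback inhibitors Lefty1 and Lefty2 were lower. Lefty1 had 66.6 and 63.2 FPKM in L3mbtl2 knockout and 338, 352 and 391 FPKM in wild type (-2.47 ± 0.06, adjusted p = 1.49e-06), and Lefty2 fell by 1.21 ± 0.03. Both lie on chromosome 1, where the median gene was higher. Of the 17 genes of that pathway 7 were higher and 7 lower. Among WNT targets 5 of 11 that passed were higher and 5 lower. Notum, a secreted WNT inhibitor, had 17 and 17.1 FPKM in L3mbtl2 knockout and 2.64, 2.8 and 2.81 FPKM in wild type (2.59 ± 0.06, adjusted p = 8.48e-07), while Sp5, a direct WNT target, fell by 1.26 ± 0.16 (adjusted p = 0.000604). Ifitm1, a membrane protein listed with LIF and JAK-STAT genes, had 17.1 and 18.7 FPKM in L3mbtl2 knockout and 127, 132 and 130 FPKM in wild type (-2.85 ± 0.05, adjusted p = 4.41e-07). Stat3, the effector of LIF, rose by 0.60 ± 0.04 (adjusted p = 2.35e-05).

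MYC family genes, whose products compete with MGA for MAX, changed in opposite directions. Mycn had 22.7 and 23.4 FPKM in L3mbtl2 knockout, against 81.6, 82.4 and 85.2 FPKM in wild type (-1.84 ± 0.03, adjusted p = 6.33e-07). Myc had 45.2 and 44.8 FPKM in L3mbtl2 knockout and 28.2, 27.4 and 28.1 FPKM in wild type (0.69 ± 0.03, adjusted p = 9.98e-06), a call that was lost with all 10 libraries in the fit. Of the 11 family members 5 were higher and 4 lower, and 3 were higher with 1 L3mbtl2 knockout library left out, whichever it was.

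The lists of lineage genes differed in direction. Primitive and extraembryonic endoderm genes were higher in 13 of 18 that passed the filter, of 27 listed, and lower in 3 (median 0.82). With 1 L3mbtl2 knockout library left out, whichever it was, 8 were higher, and with all 10 libraries in the fit 7. Sox7, an endoderm transcription factor, had 3.01 and 2.84 FPKM in L3mbtl2 knockout, against 0.317, 0.295 and 0.16 FPKM in wild type. It passed the filter through the L3mbtl2 knockout libraries alone and therefore had to be higher there (3.11 ± 0.25, adjusted p = 8.16e-05). Apoe, an apolipoprotein on the same list, had 102 and 104 FPKM in L3mbtl2 knockout and 487, 512 and 540 FPKM in wild type (-2.31 ± 0.05, adjusted p = 7.14e-07). Trophoblast genes were lower in 13 of 16 that passed, of 24 listed, and higher in 3 (median -1.17). Hand1, a factor of trophoblast giant cells, had 1.71 and 2.59 FPKM in L3mbtl2 knockout and 15.7, 15 and 16.7 FPKM in wild type (-2.85 ± 0.16, adjusted p = 2.09e-05). Tfap2c fell by 1.28 ± 0.04 (adjusted p = 2.4e-06). Primitive streak and mesoderm genes were lower in 8 of 10 that passed, of 19 listed, at low levels. Wnt3a had 0.32 and 0.236 FPKM in L3mbtl2 knockout and 1.41, 1.86 and 2.29 FPKM in wild type (-2.35 ± 0.23, adjusted p = 0.000212). Neuroectoderm genes gave 2 higher and 6 lower of 10 that passed, of 20 listed (median -0.40). Basement membrane genes gave 4 higher and 9 lower of 16 that passed, of 18 listed (median -0.26). Hox genes stayed low, and 6 of 38 passed the filter.

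Imprinted genes, expressed from 1 parental copy, were lower in 18 of 28 that passed the filter, of 36 listed, and higher in 7 (median -0.80). With all 10 libraries in the fit, 10 were lower. Phlda2, which restrains placental growth, had 15.5 and 13.9 FPKM in L3mbtl2 knockout, against 159, 164 and 163 FPKM in wild type (-3.45 ± 0.05, adjusted p = 3.28e-07). Peg3 had 3.21 and 3.3 FPKM in L3mbtl2 knockout and 19, 18.8 and 16.9 FPKM in wild type (-2.45 ± 0.06, adjusted p = 1.51e-06). Nnat had 1.5 and 1.12 FPKM in L3mbtl2 knockout and 13.5, 12.4 and 15.3 FPKM in wild type (-3.31 ± 0.14, adjusted p = 7.15e-06). Gab1, an adaptor of growth factor receptors, fell by 2.16 ± 0.04 (adjusted p = 6.24e-07). Maternally and paternally expressed genes were both among the falls, since Phlda2 and H19 are maternally and Peg3 and Nnat paternally expressed.

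Chromatin genes outside PRC1.6 showed few large changes. Among 30 other Polycomb subunits that passed the filter, 14 were higher and 10 lower (median 0.08). Suz12, a core subunit of PRC2, had 92.9 and 91.1 FPKM in L3mbtl2 knockout, against 56, 53.8 and 51.4 FPKM in wild type (0.77 ± 0.04, adjusted p = 1.91e-05). Phf19, an accessory subunit that helps PRC2 bind chromatin, had 1.25 and 1.46 FPKM in L3mbtl2 knockout and 7.91, 8.11 and 7.9 FPKM in wild type (-2.48 ± 0.08, adjusted p = 2.88e-06). Ehmt2, the H3K9 methyltransferase G9a, had 13.2 and 13.6 FPKM in L3mbtl2 knockout and 41.5, 42.8 and 44.9 FPKM in wild type (-1.67 ± 0.04, adjusted p = 1.59e-06). Its partner Ehmt1 fell by 0.58 ± 0.04. Tet2, a DNA demethylase, had 18.3 and 17.9 FPKM in L3mbtl2 knockout and 4.5, 4.21 and 4.13 FPKM in wild type (2.06 ± 0.06, adjusted p = 1.77e-06). Of the related MBT proteins, Sfmbt2 fell to 0.54 and 0.442 FPKM in L3mbtl2 knockout, against 6.85, 6.87 and 6.38 FPKM in wild type, and L3mbtl3 fell by 0.63 ± 0.08 (adjusted p = 0.000569). L3mbtl4 was listed at 0 in all 5 libraries.

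Cell cycle and DNA replication genes centred on 0. Medians were -0.01 for 32 E2F family and cell cycle genes, with 11 higher and 14 lower, and 0.01 for 36 DNA replication genes, with 17 higher and 11 lower, a split that turned to 11 higher and 18 lower with median-of-ratios scaling. Ccne1, cyclin E1, stood out, with 29.7 and 29.4 FPKM in L3mbtl2 knockout and 77.5, 78.7 and 77.1 FPKM in wild type (-1.39 ± 0.03, adjusted p = 7.16e-07). Targets of p53 were higher in 16 of 28 that passed and lower in 4, at small sizes (median 0.19), and 9 were higher with all 10 libraries in the fit. Ccng1 had 110 and 107 FPKM in L3mbtl2 knockout and 57.9, 58 and 53.7 FPKM in wild type (0.94 ± 0.04, adjusted p = 9.91e-06).

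Genes on chromosome 1 were higher as a whole. Of 830 genes tested there, 610 were higher (73.5%) and 94 lower, with a median log2 fold change of 0.76. By library, the L3mbtl2 knockout stood at median log2 ratios to the wild type mean of 0.77 and 0.75, against 0.02, -0.00 and -0.02 in wild type. In windows of 20 Mb along the chromosome the median lay between 0.55 (105 genes, from 60 to 80 Mb) and 1.30 (23 genes, from 100 to 120 Mb), so every window was above 0. Among genes with at least 1 FPKM in all 5 libraries, 84.1% of 578 were above 0. The medians of chromosomes 14 and 6 were 0.26 and 0.24, and those of the other autosomes lay between -0.07 on chromosome 7 and 0.21 on chromosome 13. Of the genes named above, Rnf2, Mael, Tfcp2l1, Rpl7, Lefty1 and Lefty2 lie on chromosome 1. The part of this shift in any of their values was not tested. Without the chromosomes of 10 or more tested genes whose median differed from that of all genes by over 0.1 (the Y chromosome, with 9, was kept), 3405 of 8141 genes were higher and 2397 lower. Those left out were chromosomes 1, 6, 7, 8, 10, 14, 15, 17, 19 and M. Several of them had medians near 0, such as 0 on chromosome 8 and 0.02 on chromosome 17, and differed only from the median of all genes.

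**Figure D3:**
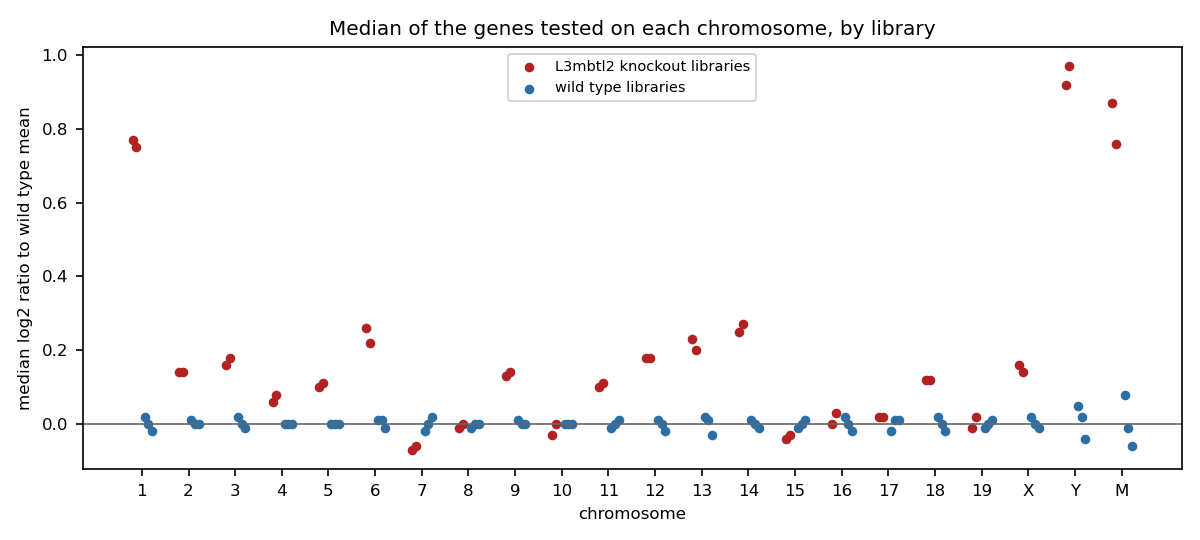
Median log2 ratio to the wild type mean of the genes tested on each chromosome, for each L3mbtl2 knockout library in red and each wild type library in blue. Chromosome 1 stands at 0.77 and 0.75 in the L3mbtl2 knockout libraries, and the Y and mitochondrial points rest on 9 and 15 genes.

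The share of 2-fold rises varied with the level in wild type, in part through the filter. Of 2782 tested genes under 1 FPKM in the wild type mean, 1115 were at least 2-fold higher (40.1%) and 222 at least 2-fold lower, but 807 of all tested genes passed the filter through the L3mbtl2 knockout libraries alone and therefore had to be higher there. Without those, 430 of 1975 genes under 1 FPKM were at least 2-fold higher (21.8%). Of 488 genes with at least 100 FPKM in wild type, 5 were at least 2-fold higher and 43 at least 2-fold lower. Long noncoding genes were at least 2-fold higher in 265 of 671 (39.5%) and at least 2-fold lower in 47, with genes that passed through the knockout alone included. Halr1, a noncoding RNA next to the Hoxa cluster, had 21.9 and 21 FPKM in L3mbtl2 knockout, against 0.469, 0.687 and 0.766 FPKM in wild type (4.88 ± 0.18, adjusted p = 4.58e-06). 1700018B24Rik, a noncoding gene, had 6.25 and 7.69 FPKM in L3mbtl2 knockout and 0 FPKM in every wild type library, and was at least 106-fold higher against the floor of 3 reads. Among genes with at least 0.5 FPKM in all 5 libraries, 5002 of 12149 were higher and 3872 lower.

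Markers of macrophages, which are phagocytes and not embryonic stem cells, moved with the knockout. Of 26 listed markers 23 passed the filter, 22 were higher and 0 lower, with a median of 1.71. With all 10 libraries in the fit, 14 were higher. They summed to 612 and 598 FPKM in L3mbtl2 knockout, against 230, 238 and 236 FPKM in wild type, so none of the groups was free of them. Lyz2, lysozyme, had 315 and 305 FPKM in L3mbtl2 knockout, against 93.3, 96.3 and 93.7 FPKM in wild type (1.71 ± 0.03, adjusted p = 6.17e-07). Adgre1, the surface marker F4/80, had 4.28 and 4.55 FPKM in L3mbtl2 knockout and 1.87, 1.96 and 2.02 FPKM in wild type (1.14 ± 0.08, adjusted p = 5.22e-05). Cd68, a lysosomal protein of macrophages, had 36.3 and 30.4 FPKM in L3mbtl2 knockout and 36, 38.5 and 37.7 FPKM in wild type (adjusted p = 0.09). Fibroblast markers, as of feeder cells, gave 10 higher and 6 lower of 21 that passed (median 0.18), with summed FPKM of 387 and 382 in L3mbtl2 knockout and 334, 336 and 342 in wild type, and none was called with all 10 libraries in the fit. The part of these cells in the changes described above was not tested. Of 9 genes tested on chromosome Y, 7 were higher, 1 was lower and 1 was not called. In the other knockouts the median log2 fold change of chromosome Y genes against wild type was -2.30 (Pcgf6 knockout) and -3.22 (Mga knockout). Ddx3y had 9.44 and 9.87 FPKM in L3mbtl2 knockout and 3.66, 3.69 and 3.54 FPKM in wild type (1.39 ± 0.06, adjusted p = 6.73e-06).

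The L3mbtl2 knockout was then tested directly against the other knockouts of PRC1.6 subunits, in a separate fit for each. Both fits included wild type, and the fit for Mga knockout held all libraries of the study. The shares called below thus rest on different spreads and are not like measures. Against Pcgf6 knockout, 5415 of 14944 genes were higher (36.2%) and 4560 lower (30.5%), together 66.7%. By at least 2-fold, 1403 were higher (9.39%) and 1385 lower (9.27%). Against Mga knockout, 1884 of 15731 genes were higher (12%) and 1707 lower (10.9%), and by at least 2-fold 677 were higher (4.3%) and 795 lower (5.05%). The spread between the Mga knockout libraries was several times wider, with a median standard deviation of 0.319, and Mga itself stood at 8.03, 19.6 and 11.2 FPKM in Mga knockout, against 19.7, 18.6 and 17.1 FPKM in wild type, so that the library labelled replicate 2 lay within the wild type range. Without replicate 2, 2746 genes were higher and 2919 lower, and without replicate 1 of L3mbtl2 knockout 527 were higher and 571 lower. All the changes against wild type share the same 3 wild type libraries, so they are given side by side. Whole chromosomes also shifted differently between knockouts. On chromosome 11 the median log2 fold change against wild type was 0.12 in L3mbtl2 knockout, -0.33 in Pcgf6 knockout and -0.26 in Mga knockout. In the same order, chromosome 16 stood at 0.03, -0.30 and -0.23 and chromosome 1 at 0.76, 0.06 and 0.27. The part of these shifts in the differences between knockouts was not tested.

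Germline genes differed in extent between knockouts. Dazl was at 5.47 and 5.7 FPKM in Pcgf6 knockout, and the L3mbtl2 knockout was higher by 3.67 ± 0.21 on the log2 scale (adjusted p = 7.31e-06). Zcwpw1 was at 4.19 and 4.49 FPKM in Pcgf6 knockout, and the L3mbtl2 knockout was higher by 3.31 ± 0.07 (adjusted p = 1.82e-07). For Piwil2 the log2 fold changes against wild type were 2.33 in L3mbtl2 knockout, 2.30 in Pcgf6 knockout and 2.73 in Mga knockout. Other meiosis genes were lower in L3mbtl2 knockout than in the other knockouts. Syce1 was at 3.05 and 2.82 FPKM in L3mbtl2 knockout, 45.3 and 45.9 FPKM in Pcgf6 knockout and 65.7, 85.1 and 80.2 FPKM in Mga knockout. The difference from Pcgf6 knockout was -3.91 ± 0.06 (adjusted p = 6.7e-08) and that from Mga knockout was -4.66 ± 0.11 (adjusted p = 5.16e-07). Hormad1 was at 1.85 and 1.93 FPKM in L3mbtl2 knockout, 6.7 and 4.84 FPKM in Pcgf6 knockout and 123, 167 and 134 FPKM in Mga knockout (difference from Mga knockout -6.14 ± 0.21, adjusted p = 2.29e-06). Tex12, another synaptonemal protein, was at 0.205 and 0.211 FPKM in L3mbtl2 knockout and at 134, 146 and 149 FPKM in Mga knockout (-8.86 ± 0.39, adjusted p = 5.17e-06). Slc25a31, a testis ATP carrier, showed the same order, with 1.25 and 0.918 FPKM in L3mbtl2 knockout, 3.3 and 3.47 FPKM in Pcgf6 knockout and 73.4, 89.2 and 97.3 FPKM in Mga knockout.

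On chromosome X, Rhox5 was at 22.9 and 23.1 FPKM in L3mbtl2 knockout, 293 and 297 FPKM in Pcgf6 knockout and 340, 85.6 and 315 FPKM in Mga knockout. The difference between L3mbtl2 knockout and Pcgf6 knockout was -3.67 ± 0.06 (adjusted p = 1.01e-07). Rhox13, a neighbour in the same cluster, rose in all 3 knockouts, by 8.10 in L3mbtl2 knockout, 6.79 in Pcgf6 knockout and 7.04 in Mga knockout. Obox6 was at 15.9 and 15.8 FPKM in L3mbtl2 knockout, 4.39 and 2.88 FPKM in Pcgf6 knockout and 0.15, 0.277 and 0.372 FPKM in Mga knockout, and was higher in L3mbtl2 knockout than in Mga knockout by 5.49 ± 0.29 (adjusted p = 1.27e-05).

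The genes compared here that fell in L3mbtl2 knockout were lower there than in Pcgf6 knockout. Epcam fell less in Pcgf6 knockout. Dhcr7 and Ldha did not fall in Pcgf6 knockout, and Ehmt2, a chromatin gene, lay within the wild type range there. Epcam was at 89.8 and 91.2 FPKM in Pcgf6 knockout, and L3mbtl2 knockout was lower by 2.09 ± 0.03 on the log2 scale (adjusted p = 6.7e-08). Cldn4 was at 54 and 56.5 FPKM in Pcgf6 knockout, and L3mbtl2 knockout differed from it by -3.93 ± 0.10 (adjusted p = 3.03e-07). Dhcr7 was at 38 and 35.7 FPKM in Pcgf6 knockout, with a difference of -1.91 ± 0.04 (adjusted p = 2.65e-07), and the difference from Mga knockout was -0.85 ± 0.23 (adjusted p = 0.028). Ldha was at 561 and 571 FPKM in Pcgf6 knockout, above wild type, and L3mbtl2 knockout differed by -1.58 ± 0.03 (adjusted p = 1.66e-07). Ehmt2 was at 42 and 41.9 FPKM in Pcgf6 knockout, with a difference of -1.63 ± 0.04 (adjusted p = 4.19e-07). Klhl13 was lower in all 3 knockouts, with 4.02 and 3.77 FPKM in L3mbtl2 knockout, 45.4 FPKM in both Pcgf6 knockout libraries and 8.85, 8.67 and 10.2 FPKM in Mga knockout.

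**Figure D4:**
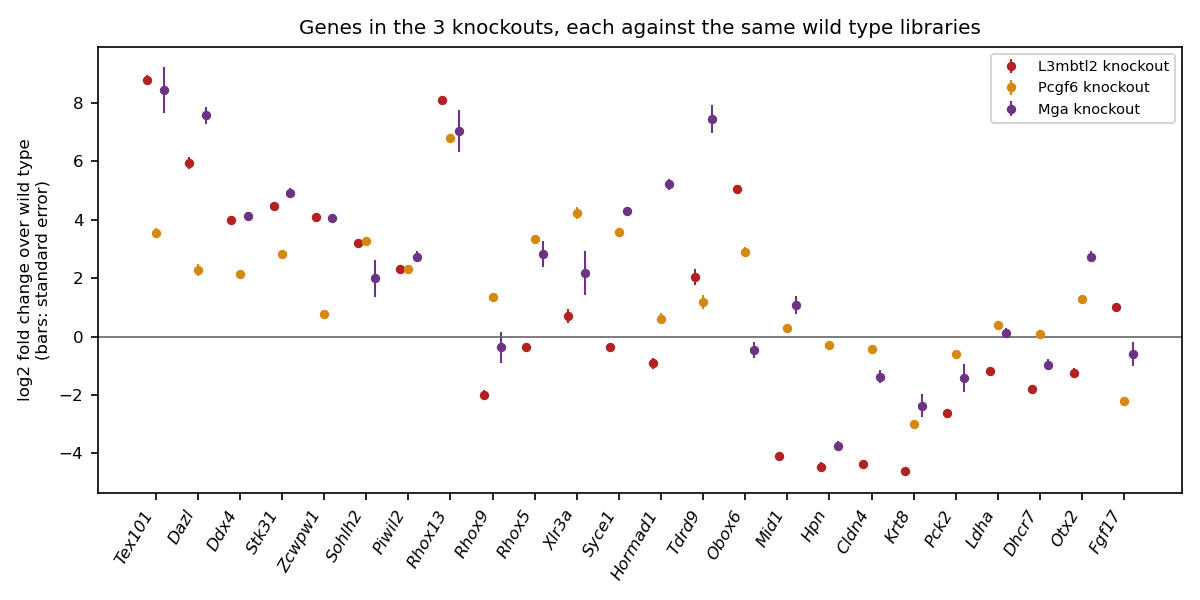
Log2 fold change over the same 3 wild type libraries for 24 genes in L3mbtl2, Pcgf6 and Mga knockout, with bars of 1 standard error. Mid1 is at -4.09 in L3mbtl2 knockout and above 0 in the other 2 knockouts, and Syce1 is at -0.35 in L3mbtl2 knockout, 3.57 in Pcgf6 knockout and 4.31 in Mga knockout.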

How the data were processed

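RNA of 5 libraries, 2 of L3mbtl2 knockout and 3 of wild type, was compared, with 5 further libraries of Pcgf6 and Mga knockout for contrast. Per the labels' protocols, Trizol was used for RNA extraction and a NEBNext Ultra kit, which does not mark strand, for the libraries. The deposited files give FPKM per gene, made by the authors. Per the submitters' processing notes, Bowtie2 2.2.3, TopHat2 2.0.12 and HTSeq 0.6.0 were used with GRCm38, while the sources used here do not give the scaling. Of 30460 genes listed, 30250 matched a GENCODE M21 symbol. FPKM moves in steps of whole reads: 78.3% of genes above 0 came out whole, to 0.02 of a read, at the GENCODE exon length, which gave the depth and, with limma-voom, an alternative test.

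The main test was limma 3.58.1 (R 4.3.3) on log2(FPKM + 0.1), with a variance prior following mean expression, on genes with at least 0.5 FPKM in 2 libraries. Fold changes on that scale understate changes near 0. A log2 fold change is given with its standard error, and p-values were adjusted by Benjamini-Hochberg across every gene tested. Comparisons with Pcgf6 knockout used 7 libraries and those with Mga knockout 10. The fit was tested on simulated data. Alternatives changed the pseudocount, filter, scaling, variance prior, libraries, replicate block and test. The 52 gene lists and the comparison itself were chosen with earlier results of these data known. Named genes are all PRC1.6 subunits, the 15 largest rises and falls, in each list the first 4 members and up to 6 with the largest change, the 5 largest noncoding rises and falls, and the 8 largest differences from each other knockout, and fewer are printed. Promoters are RefSeq sequences (GRCm38.p6), 1 start per gene. Because reads carry no molecular identifiers, floors of 3 reads cover counting error only. Members of multi-copy families can share reads.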

Additional observations from a re-analysis of the deposited data

Results flagged for a closer look

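These protein-coding genes drew attention because they changed at least 2-fold against wild type in opposite directions in L3mbtl2 and Pcgf6 knockout, and the difference between the 2 knockouts itself passed the test (limma, adjusted p under 0.05). There were 31, chosen after their values were seen, and both changes share the same wild type libraries. Of these, 16 were higher in L3mbtl2 knockout and lower in Pcgf6 knockout, relative to wild type. The log2 differences of L3mbtl2 knockout from Pcgf6 knockout were 4.53 for Ddx3y, 4.17 for Fancd2os, 3.30 for Uty, 3.22 for Fgf17, 3.17 for Mmp12, 3.12 for Dpep3, 3.11 for Mmp8 and 3.04 for Fthl17c. The smaller ones were 2.92 for Cxcl3, 2.78 for Il1rn, 2.66 for Il1a, 2.54 for Cdhr1, 2.41 for Vstm5, 2.27 for Hecw2, 2.22 for Zfp951 and 2.10 for Mmp13. Ddx3y and Uty lie on chromosome Y, which shifted as a whole. Its median gene was higher than wild type in L3mbtl2 knockout and lower in Pcgf6 knockout (median log2 fold change -2.30). The part of that shift in the values of Ddx3y and Uty was not tested. Hecw2 lies on chromosome 1, whose median gene was 0.76 higher than wild type in L3mbtl2 knockout. Chit1, given below, lies there too and was lower in L3mbtl2 knockout. The part of the chromosome 1 shift in these values was not tested. Mmp12, an elastase of macrophages, averaged 22.7 FPKM in L3mbtl2 knockout, 2.43 FPKM in Pcgf6 knockout and 5.41 FPKM in wild type. Fgf17, a growth factor, averaged 43.1 FPKM in L3mbtl2 knockout, 4.55 FPKM in Pcgf6 knockout and 21.2 FPKM in wild type.

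The other 15 were lower in L3mbtl2 knockout and higher in Pcgf6 knockout. Their log2 differences were -3.47 for Grrp1, -3.36 for Pglyrp1, -3.35 for Rhox9, -3.11 for Cdc42ep1, -2.97 for Sp5, -2.95 for Chit1, -2.93 for Rhox6 and -2.74 for Mt1. Those of the remaining genes were -2.53 for Otx2, -2.46 for Bmp6, -2.35 for Lck, -2.24 for Kirrel2, -2.16 for Scd3, -2.15 for Ppp1r3b and -2.12 for Upk1a. Mt1, a metallothionein that binds zinc and copper, averaged 249 FPKM in L3mbtl2 knockout, 1662 FPKM in Pcgf6 knockout and 569 FPKM in wild type. Otx2, a factor of the primed state, averaged 0.403 FPKM in L3mbtl2 knockout, 2.81 FPKM in Pcgf6 knockout and 1.09 FPKM in wild type. Rhox6 averaged 2.37 FPKM in L3mbtl2 knockout, 18.7 FPKM in Pcgf6 knockout and 5.08 FPKM in wild type.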

How the results depend on the processing

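With a pseudocount of 1 FPKM, the counts changed at least 2-fold were 879 higher and 702 lower against wild type, 650 and 643 against Pcgf6 knockout, and 367 and 392 against Mga knockout. With all 10 libraries in 1 fit, whose spread includes that of the Mga knockout, 3675 genes were higher and 2622 lower than wild type, and 105 of 420 named genes were no longer called. Without the shifted chromosomes, which leaves 8141 genes, 3405 were higher and 2397 lower, with 972 and 690 by at least 2-fold. With only the 5 libraries of the Mga comparison, 312 genes were higher and 322 lower, with 238 and 268 by at least 2-fold.

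Leaving out 1 library at a time gave 4509 to 5937 genes higher and 3981 to 4295 lower against wild type, and 1143 to 1888 higher and 1304 to 1351 lower by at least 2-fold. The lowest count of 2-fold rises, 1143, came without L3mbtl2 knockout replicate 1. Against Pcgf6 knockout the ranges were 4293 to 5481 and 3881 to 4543, and by at least 2-fold 992 to 1418 and 1225 to 1384. Against Mga knockout they were 527 to 3074 and 571 to 2919, and by at least 2-fold 282 to 1047 and 405 to 1141. The lowest of these came without L3mbtl2 knockout replicate 1 and the highest without Mga knockout replicate 1 or 2, and the cause was not tested. L3mbtl2 itself ranged over -2.5 to -2.41.

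Median-of-ratios scaling moved the median of all genes to -0.01, against 0.12 as deposited. Under it Cdk1 stood at -0.12, Mcm2 at -0.10 and Ccn1 at -0.02, against 0.01, 0.03 and 0.11 as deposited, shifts of the size of that of all genes. A replicate block gave 5852 genes higher and 4301 lower than wild type, with 1885 and 1342 by at least 2-fold. It gave 1317 higher and 1195 lower than Mga knockout. Deviations of same-numbered libraries correlated at 0.048 and -0.018, so the numbers were not taken to pair them. Limma-voom on recovered reads called 10873 genes. With 2 L3mbtl2 knockout libraries, genes near 0 in wild type rest on both passing the filter.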
